A study of Mus musculus with 44 samples.

Results

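Gene expression in Apoe knock-out astrocytes was compared with that in APOE33 astrocytes across all expressed genes. The comparison used 10 of the 44 RNA-seq libraries of the series, 4 from knock-out and 6 from APOE33 astrocytes, chosen by their titles. Both groups are primary mouse astrocytes that were purified, grown in media made for human glia and left untreated, and all 10 libraries are tagged as batch 1. The knock-out lacks a functional Apoe gene, and APOE33 is the name used for mice whose Apoe is replaced by human APOE3, so neither genotype is a wild type. The labels describe neither allele. Knock-out replicate 1 is female and replicates 2 to 4 are male, while APOE33 replicates 1, 2, 4 and 5 are female and replicates 3 and 6 male. The genotype tag of APOE33 replicate 1 reads WT, but its title and source name give APOE33, and it stayed in that group. Strain and age are not stated. Whether replicates came from different mice or from parallel dishes is not stated, so the p-values below measure the spread between these libraries, which may be technical.

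Apolipoprotein E is the main lipid carrier that astrocytes secrete, and it takes cholesterol and phospholipid out of the cell on lipoprotein particles for uptake by neighbouring cells. Astrocytes also make much of the cholesterol of the brain. The enzymes of that pathway are switched on by the transcription factor SREBP2 when sterols in the endoplasmic reticulum are low and are held down when sterols are plentiful. Immediate early genes such as Fos and Egr1 are transcribed within minutes of growth factor, serum or mechanical signals through the ERK kinase and serum response factor, without new protein synthesis.

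Depth per library was 107293569 to 115918340 counts in knock-out and 97175787 to 117667286 counts in APOE33 astrocytes, and RNA integrity numbers (RIN) were 9.1 to 9.7 in each group. Counts assigned to the mitochondrial genome were 3.12% to 3.39% in knock-out and 2.63% to 3.11% in APOE33 libraries. Transcripts specific to 1 sex matched the label of all 10 libraries. The cultures carried astrocyte transcripts: the intermediate filament gene Gfap stood at 4293, 5995, 5947 and 3664 CPM (counts over the TMM-scaled library size) in the knock-out libraries, against a lowest, median and highest level of 4453, 6858 and 7599 CPM in APOE33. The summed level of 29 astrocyte markers was 25510 to 30450 CPM in knock-out and 28740 to 35500 CPM in APOE33 astrocytes. The summed level of 22 microglia and macrophage markers was 355 to 674 CPM in knock-out and 286 to 748 CPM in APOE33 astrocytes. The microglia marker Cx3cr1, chosen after its values were seen, was above 0 in all 10 libraries. It stood at 36.9, 44.8, 19.6 and 29.9 CPM in the knock-out, against 7.99, 14.3 and 31.1 CPM as the lowest, median and highest of APOE33. Its log2 fold change was 1.21 (SE 0.45, adjusted p = 0.0802 by edgeR's quasi-likelihood test). In bulk samples such as these, fewer cells of a type and less RNA per cell cannot be told apart.

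Apoe (ENSMUSG00000002985.16, chromosome 7, 19696109 to 19699188 on GRCm38) was checked first. The table has no entry for human APOE, so only reads assigned to the mouse gene were counted. Its level was 10.9, 13, 15.3 and 13.6 CPM in knock-out replicates 1 to 4, against a lowest, median and highest level of 23.4, 26.5 and 36.7 CPM in APOE33. All 4 knock-out libraries lay below all 6 APOE33 libraries, with a log2 fold change of -1.21 (SE 0.15, adjusted p = 0.000245). Human APOE was not counted, so this fold change does not measure how much apolipoprotein E was lost. The source of the mouse Apoe reads in either group was not tested. The adjusted p is from edgeR's quasi-likelihood test with Benjamini-Hochberg adjustment over the 20481 genes tested, as is every adjusted p of a gene below. Fold changes are knock-out over APOE33 on the log2 scale, and SE is their standard error. A gene is said to have risen, fallen or passed at an adjusted p under 0.05.

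Of the 20481 genes, 3522 passed (17.2%), 1714 higher (8.37%) and 1808 lower (8.83%) in knock-out than in APOE33 astrocytes. The median log2 fold change over all genes was 0.0025. Most changes were small, with a median size of 0.43 on the log2 scale among the genes that passed and 56.4% of them under 0.5. A change of at least 1 was found for 367 genes that rose and 321 that fell. All 4 knock-out libraries lay above all 6 APOE33 libraries for 6.92% of genes and below them for 7.13%. Without knock-out replicate 1, the female library, 939 genes rose and 897 fell, and without APOE33 replicate 3, 1072 rose and 1275 fell. In the principal components of log2 CPM, the first component (31.05% of the variance) placed the knock-out libraries between -55.2 and -30.6 and the APOE33 libraries between 9.47 and 49.1. On that component APOE33 replicates 4 to 6 lay nearer to the knock-out than replicates 1 to 3.

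For a minority of genes, and on the first component, APOE33 replicates 4 to 6 stood apart from replicates 1 to 3, a pattern seen in the data and not given by the labels. It did not hold for the libraries as a whole: replicate 5 scored -8.67 on the second component, against 50.5 and 34.96 for replicates 4 and 6, and its chi-square per gene, between 77.9 and 85.2, was alike against all 5 other replicates. APOE33 replicates 4 to 6 lay all above replicates 1 to 3, on the side of the knock-out, for 466 of the 1714 genes that rose (27.2%), and all below them for 39 (2.28%). Among the 1808 genes that fell they lay all below replicates 1 to 3 for 389 (21.5%) and all above for 98 (5.42%). Over all genes tested the shares were 11.7% above and 10.7% below. RIN was 9.3, 9.2 and 9.1 in APOE33 replicates 4 to 6 and 9.5, 9.7 and 9.4 in replicates 1 to 3, against 9.1, 9.4, 9.1 and 9.7 in the knock-out, and its part in the pattern was not tested. Of counts from 1 to 9, 75.5% and 74.9% were even in APOE33 replicates 4 and 6, against 65.7% to 66.6% in the other APOE33 replicates. The part of that share was not tested either. With only replicates 4 to 6 as the APOE33 libraries 859 genes rose and 1089 fell, and with only replicates 1 to 3, 2166 rose and 1973 fell. Counts from these smaller sets are given below for the lists described most closely. In males alone (3 knock-out and 2 APOE33 libraries) 1115 genes rose and 1009 fell. That fit also held the male APOE44 libraries, and its list counts are given where they differ by more than 1.5 times.

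**Figure D1:**
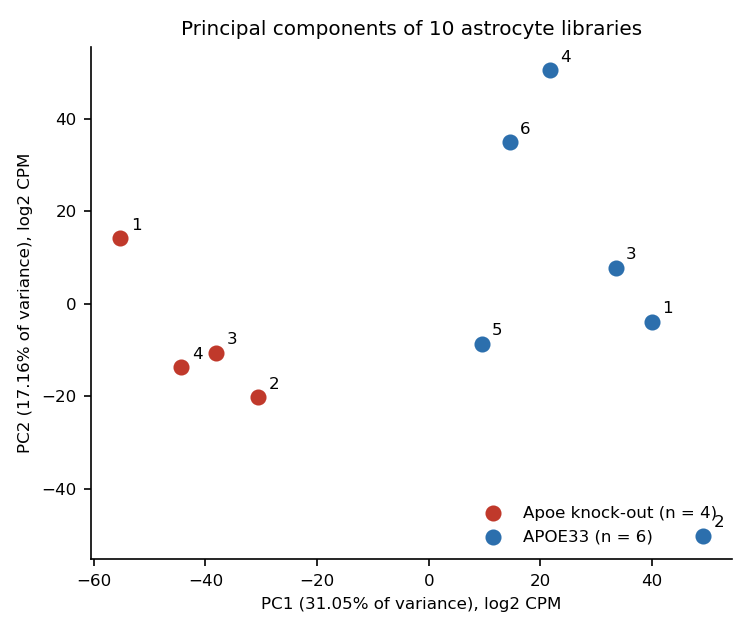
First and second principal components of log2 CPM over the 20481 genes tested, with each point 1 library labelled by its replicate number (4 knock-out, 6 APOE33). The knock-out libraries lie at -55.2 to -30.6 on the first component and the APOE33 libraries at 9.47 to 49.1, with no overlap.

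**Figure D2:**
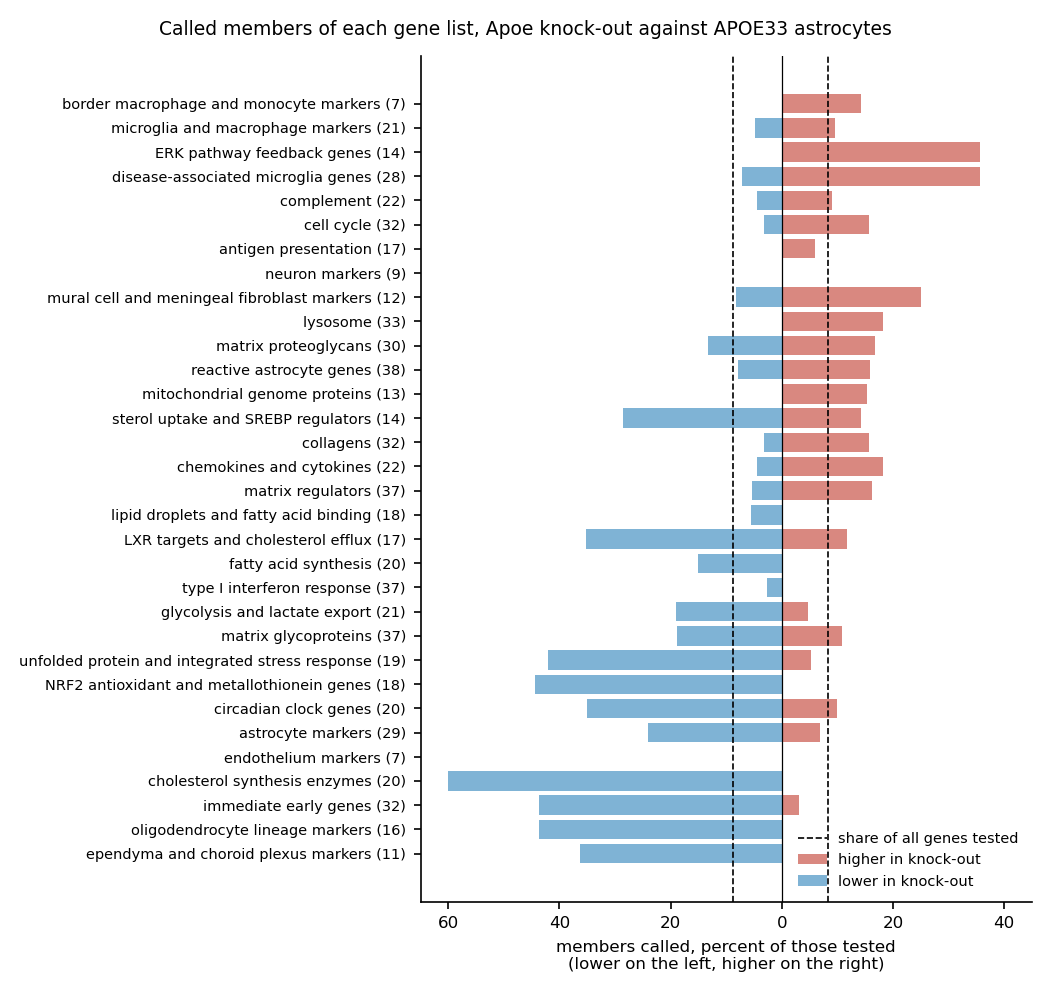
Share of the tested members of 32 gene lists (number tested in parentheses) that passed, lower in knock-out on the left and higher on the right, ordered by the list's median log2 fold change. Dashed lines mark the shares over all genes tested, 8.83% lower and 8.37% higher.

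Enzymes of cholesterol synthesis were lower in knock-out astrocytes. Of 20 enzymes tested, 12 fell (against 8.83% of all genes), 0 rose and 8 did not pass, and all 20 fold changes were negative, with a median of -0.36. The summed level of the 20 enzymes was 699, 839, 852 and 742 CPM in the knock-out libraries, against 971 to 1084 CPM in APOE33. Leaving out any 1 library left 10 to 13 enzymes lower and 0 higher, and 12 and 11 were lower with only APOE33 replicates 4 to 6 and only replicates 1 to 3.

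At the start of the pathway, Hmgcs1, the HMG-CoA synthase (ENSMUSG00000093930.2, chromosome 13, 119690379 to 119708260), stood at 79.4, 111, 106 and 92.1 CPM in knock-out libraries, against a lowest, median and highest of 136, 153 and 154 CPM in APOE33. The groups did not overlap, and the fold change was -0.66 (SE 0.081, adjusted p = 0.000186). The isoprenoid enzymes Mvd, a decarboxylase, Idi1, an isomerase, and Fdps, a farnesyl diphosphate synthase, had log2 fold changes of -0.56, -0.59 and -0.70 (SE 0.10, 0.10 and 0.12, adjusted p = 0.00208, 0.00176 and 0.00184). All 3 were separate between groups, but Fdps, a gene with processed copies elsewhere in the genome, was counted at only 1.07, 1.33, 1.05 and 1.06 CPM in the knock-out, and its counts are uncertain.

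Of the squalene and sterol steps, Sqle, the squalene epoxidase, had the smallest adjusted p. It stood at 67.3, 85.2, 84.7 and 75.3 CPM in the knock-out libraries, against 109, 115 and 116 CPM as the lowest, median and highest of APOE33, a fold change of -0.56 (SE 0.061, adjusted p = 5.76e-05). The spread was wider among the 4 knock-out libraries than among the 6 APOE33 libraries, and the groups did not overlap. Fdft1, the squalene synthase, had a fold change of -0.43 (SE 0.083, adjusted p = 0.00294). Further along, the lanosterol demethylase Cyp51 stood at 39.8, 44.9, 46.5 and 39.97 CPM in the knock-out, against 55.7, 60.8 and 63.3 CPM in APOE33 (log2 fold change -0.49, SE 0.063, adjusted p = 0.000245). Msmo1, the sterol methyl oxidase of the next steps, had 65.2, 69.9, 76.5 and 67 CPM in the knock-out, against 87.9, 96.2 and 112 CPM in APOE33 (log2 fold change -0.49, SE 0.070, adjusted p = 0.000461). Nsdhl, which removes the oxidised methyl group, had a log2 fold change of -0.46 (SE 0.077, adjusted p = 0.00129). For Cyp51, Msmo1 and Nsdhl too, every knock-out library lay below every APOE33 library. Fdps, Mvd, Fdft1 and Idi1 lie outside the rule for named genes and were chosen after their values were seen.

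**Figure D3:**
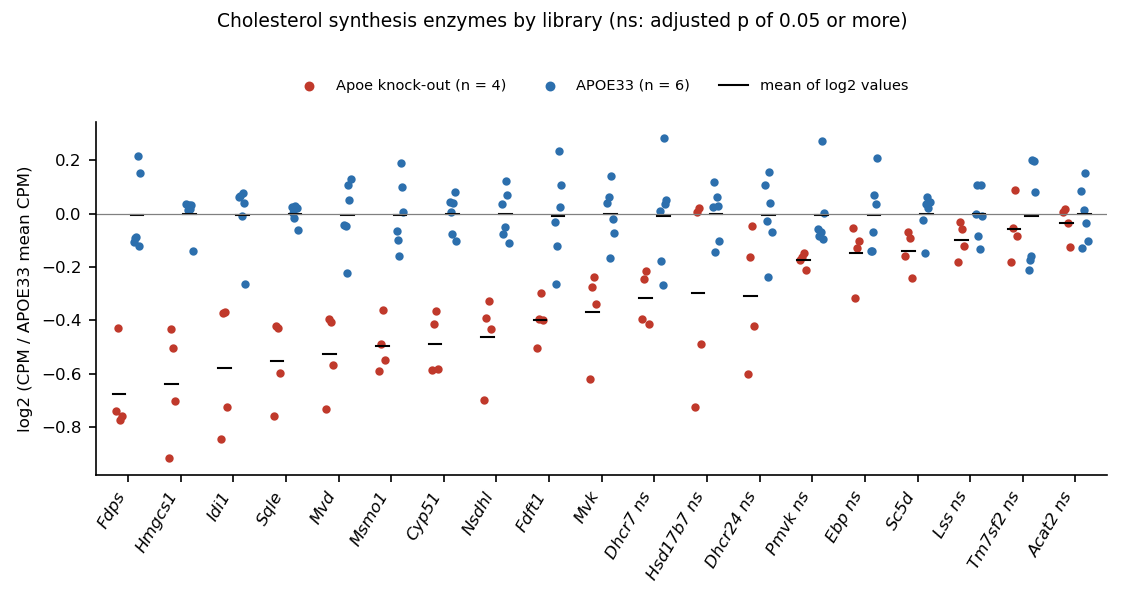
Level of 19 of the 20 cholesterol synthesis enzymes in each library, as log2 of its CPM over the mean CPM of APOE33 (knock-out left, APOE33 right of each position, black bars the means of log2 values), ordered by fold change. In 10 of the 11 enzymes shown that passed no knock-out library reaches the APOE33 range; the enzymes marked ns did not pass.

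The promoter of Hmgcs1 is shown because it was the only enzyme promoter that held the core letters of the classical sterol element. RefSeq windows of 300 bases, 250 before and 50 after the start, were searched on both strands for TCACNCCAC, which 1.24% of 32851 windows held. Of the 20 enzymes 15 matched a window and 1 held the letters, and of 14 sterol uptake and SREBP genes 11 matched and 0 held them. The stretch runs 5′ to 3′ on the plus strand at chr13:119690174-119690262 (GRCm38.p6) and ends 89 bases before the start, and capitals mark the match.
Hmgcs1: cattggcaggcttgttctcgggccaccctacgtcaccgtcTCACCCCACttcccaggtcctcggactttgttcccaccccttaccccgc
A match is only a description of the letters in these windows.

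Sterol uptake and the SREBP machinery moved in both directions. Of 14 genes tested, 2 rose (14.3%, against 8.37% of all genes) and 4 fell (28.6%, against 8.83%). The genes described next are all among the 4 that fell, and values of the 2 that rose are not given. Srebf2, which encodes SREBP2, stood at 202, 237, 234 and 234 CPM in the knock-out libraries, against 247, 274 and 285 CPM as the lowest, median and highest of APOE33, a fold change of -0.29 (SE 0.060, adjusted p = 0.00437). Stard4, a cytosolic sterol carrier, had a log2 fold change of -0.54 (SE 0.11, adjusted p = 0.00517), and neither gene overlapped between groups. Lrp8, a receptor for apoE and reelin, had a log2 fold change of -0.54 (SE 0.15, adjusted p = 0.0281), and lost its call without knock-out replicate 1 or 4 or APOE33 replicate 3 (adjusted p = 0.152, 0.071 and 0.083). The counts also depended on single libraries: 0 rose without knock-out replicate 1 or 3 or APOE33 replicate 3, 1 rose without knock-out replicate 2 or 4 or APOE33 replicate 4, and 2 fell without knock-out replicate 1. In males alone 0 rose and 1 fell.

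Among 17 LXR targets and efflux genes, 2 rose (11.8%) and 6 fell (35.3%), against 8.37% and 8.83% of all genes. These include 2 genes beside Apoe, at 17.9 and 6.58 kb, chosen after their values were seen: Apoc4, which rose, and Apoc1, which fell. Both were at low levels, with means of 0.162 and 0.240 CPM in the knock-out and 0.0277 and 0.621 CPM in APOE33. Their log2 fold changes were 3.27 (SE 0.96, adjusted p = 0.0284) and -1.36 (SE 0.42, adjusted p = 0.0352). Abca1, the transporter that loads apoE with lipid, did not pass: it stood at 1078, 1665, 1426 and 1180 CPM in the knock-out, against 1121, 1391 and 1649 CPM in APOE33 (log2 fold change -0.12, SE 0.13, adjusted p = 0.557). Cyp27a1, which makes 27-hydroxycholesterol, rose at a low level, with 3.75, 2.69, 1.81 and 2.69 CPM in the knock-out libraries, against 0.752, 1.28 and 1.78 CPM in APOE33. The groups did not overlap and the fold change was 1.24 (SE 0.21, adjusted p = 0.00135). Pltp, the phospholipid transfer protein, had 95.9, 148, 146 and 129 CPM in the knock-out, against 149.9, 166 and 179 CPM in APOE33 (log2 fold change -0.43, SE 0.11, adjusted p = 0.0187). It fell below the APOE33 range in all 4 libraries but lost its call without knock-out replicate 1 (adjusted p = 0.13). The number that fell was 1 without knock-out replicate 1, 3 without knock-out replicate 3 or APOE33 replicate 3, 4 without knock-out replicate 2 or 4 or APOE33 replicate 6, and 2 in males alone. The number that rose was 1 without knock-out replicate 2 or 3 or APOE33 replicate 3 or 6. With only APOE33 replicates 4 to 6, 1 rose and 3 fell, and with only replicates 1 to 3, 1 rose and 5 fell.

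Of 20 fatty acid synthesis genes 3 fell and 0 rose, and the list's median was -0.06; DESeq2 called 5 lower. Fads2, the delta-6 desaturase, stood at 274, 288, 258 and 258 CPM in the knock-out, against 319.5, 353 and 376 CPM in APOE33 (log2 fold change -0.39, SE 0.059, adjusted p = 0.000681). Scd2, the main stearoyl-CoA desaturase of brain, had 3075, 4259, 3868 and 3358 CPM in the knock-out, against 4341, 4764 and 5165 CPM in APOE33 (log2 fold change -0.43, SE 0.10, adjusted p = 0.00856). Both groups of values were separate, although the Scd2 call was lost without knock-out replicate 1 (adjusted p = 0.0667). Leaving out APOE33 replicate 6 left 2 lower and 1 higher, leaving out APOE33 replicate 4 left 3 lower and 1 higher, and 1 fell with only APOE33 replicates 4 to 6. Of 18 lipid droplet and fatty acid binding genes 1 fell (5.56%) and 0 rose. It was the triglyceride synthase gene Dgat2, at 2.5, 4.67, 4.28 and 2.95 CPM in the knock-out, against 5.04, 6.53 and 11.4 CPM in APOE33 (log2 fold change -1.04, SE 0.26, adjusted p = 0.0158). That call was lost without knock-out replicate 1 (adjusted p = 0.0927), and without APOE33 replicate 5 a further gene rose. In males alone 2 genes of that list fell. The lysosomal lipase Lipa, which frees cholesterol from lipoprotein esters, was higher, with 61.9, 61.4, 56.4 and 56.7 CPM in knock-out libraries, against 42.7, 49 and 54.5 CPM in APOE33 (log2 fold change 0.32, SE 0.048, adjusted p = 0.000675). It was 1 of 6 lysosomal genes of 33 that rose (18.2%, against 8.37% of all genes), with 0 that fell. Without knock-out replicate 1, 3 rose and 1 fell. The number that rose was 2 without APOE33 replicate 3 or with only APOE33 replicates 4 to 6, and 10 with only replicates 1 to 3, and in males alone 4 rose and 1 fell.

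The same 20 enzymes responded differently in primary microglia of the same genotypes, grown in the same way (4 knock-out and 6 APOE33 libraries). All 32 libraries of batch 1 were fitted together, with sex within cell type, and the knock-out effect in microglia minus that in astrocytes was tested over 21647 genes. Of these genes 12.7% passed, 6.18% with a higher and 6.55% with a lower effect in microglia. All 20 enzymes passed in the first direction, with a median difference of 1.84 on the log2 scale. In that fit the median knock-out effect was -0.33 in astrocytes and 1.52 in microglia, where all 20 enzymes rose (10.1% of all genes did). For Sqle the effect was -0.54 in astrocytes and 1.82 in microglia, a difference of 2.36 (SE 0.40, adjusted p = 0.000264). For Mvd the values were -0.53 in astrocytes and 1.53 in microglia, a difference of 2.06 (SE 0.20, adjusted p = 4.71e-07). For Srebf2 the difference was 0.90 (SE 0.14, adjusted p = 5.3e-05). These adjusted p-values are from edgeR's quasi-likelihood test of the difference. Same-numbered astrocyte and microglia libraries of a genotype carry the same sex label. Whether they came from the same mice is not stated, and the fit treated them as independent.

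**Figure D4:**
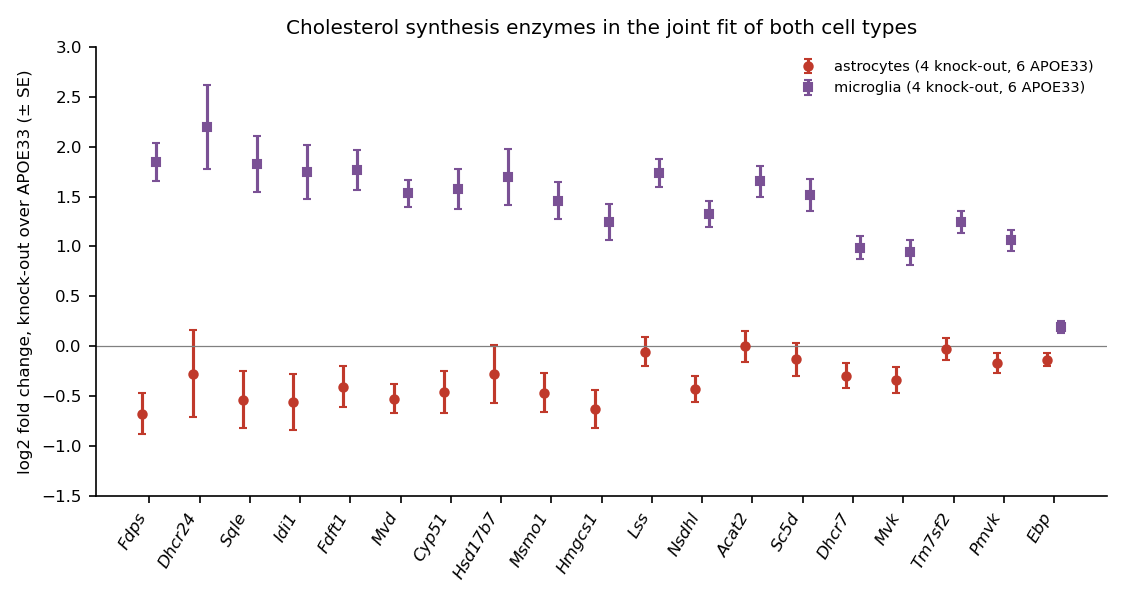
Log2 fold change of knock-out over APOE33 for 19 of the 20 cholesterol synthesis enzymes in the joint fit, with SE as error bars (circles, astrocytes; squares, microglia; 4 knock-out and 6 APOE33 libraries of each cell type). All values are below 0 in astrocytes and above 0 in microglia, with medians over all 20 of -0.33 in astrocytes and 1.52 in microglia.

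Immediate early genes were lower in knock-out astrocytes. Of 32 tested, 14 fell (43.8%), 1 rose and 17 did not pass, and 28 fold changes were negative, with a median of -0.60. Without knock-out replicate 1, 8 fell, and 12 fell with only APOE33 replicates 4 to 6 and 19 with only replicates 1 to 3. In males alone 2 rose and 10 fell. The genes differed in how far the APOE33 libraries spread. Egr1, a zinc finger factor, stood at 11.1, 8.68, 9.84 and 10.1 CPM in the knock-out libraries, against 286, 201, 65.3, 94, 104 and 36.9 CPM in APOE33 replicates 1 to 6. The knock-out values were close together, APOE33 replicate 6 was the nearest to them, and the log2 fold change was -3.48 (SE 0.61, adjusted p = 0.0028). Fos, a member of the AP-1 dimer, had 14, 7.97, 10.3 and 8.83 CPM in the knock-out, against 242, 143, 67.2, 93.4, 78.4 and 38.7 CPM in APOE33 replicates 1 to 6 (log2 fold change -3.24, SE 0.58, adjusted p = 0.00307). Across the APOE33 libraries Egr1 and Fos were both highest in replicate 1 and lowest in replicate 6, and neither group overlapped the other. Fosb had a log2 fold change of -2.72 (SE 0.51, adjusted p = 0.00389) and Ier2, an early gene of unclear function, had a log2 fold change of -2.01 (SE 0.37, adjusted p = 0.00357). Ier2 was chosen after its values were seen.

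Zfp36, which encodes tristetraprolin, a protein that binds AU-rich messages and speeds their decay, had the smallest adjusted p of the list. It stood at 10.8, 12.6, 12.7 and 15.7 CPM in the knock-out libraries, against 30.6, 39.2 and 54.1 CPM as the lowest, median and highest of APOE33, a fold change of -1.66 (SE 0.16, adjusted p = 3.97e-05). The highest knock-out library was well under the lowest APOE33 library. Jund, another AP-1 member, had 38.3, 36.9, 40.7 and 42.2 CPM in the knock-out, against 44.7, 56.1 and 71.2 CPM in APOE33 (log2 fold change -0.58, SE 0.11, adjusted p = 0.0025). Nr4a3, an orphan nuclear receptor, had 0.914, 0.87, 0.994 and 0.579 CPM in the knock-out, against 1.69, 1.95 and 3.33 CPM in APOE33 (log2 fold change -1.32, SE 0.22, adjusted p = 0.00116). Its relative Nr4a2 was the 1 gene of the list that rose, with 5.08, 3.43, 3.71 and 3.47 CPM in the knock-out, against 1.69, 2.29 and 2.57 CPM in APOE33 (log2 fold change 0.85, SE 0.14, adjusted p = 0.00103). Neither of the nuclear receptors overlapped between groups. Ccn2, a matrix-associated target of mechanical signalling that was chosen after its values were seen, stood at 926, 906, 916 and 775 CPM in the knock-out, against 968, 1319 and 1702 CPM in APOE33 (log2 fold change -0.62, SE 0.12, adjusted p = 0.00421).

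Serum response factor binds the CArG box, and among the searched windows of the early genes that fell the box was found in that of Zfp36. Of the 15 early genes that passed, 11 matched a window, and Egr1 was not among them. The windows reach 250 bases before the start, and boxes further away were not searched for any gene. Of 32 genes 25 matched a RefSeq window and 4 held a CArG box (CC, 6 bases of A or T, GG; 1.63% of all windows): Dusp5, Egr2, Srf and Zfp36. The cyclic AMP element TGACGTCA was held by 3, Btg2, Dusp1 and Maff, against 1.79% of all windows, and none of those 3 genes passed. The stretch of Zfp36 runs 5′ to 3′ on the minus strand at chr7:28379237-28379326 (GRCm38.p6) and ends 9 bases before the start, and capitals mark the CArG box.
Zfp36: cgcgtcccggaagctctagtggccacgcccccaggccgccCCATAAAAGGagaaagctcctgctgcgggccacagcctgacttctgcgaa

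Feedback inhibitors and targets of the ERK pathway were higher where they passed. Of 14 tested, 5 rose (35.7%, against 8.37% of all genes) and 0 fell, with a median of 0.60, and 13 of 14 fold changes were positive. Spry4, a sprouty inhibitor of receptor signalling, stood at 10.03, 9.58, 12.3 and 12.7 CPM in the knock-out libraries, against 4.47, 6.3 and 8.59 CPM as the lowest, median and highest of APOE33. The groups did not overlap, and the fold change was 0.75 (SE 0.16, adjusted p = 0.00499). Spry1, of the same family, had 7.48, 5.34, 9.19 and 7.15 CPM in the knock-out, against 4.24, 4.56 and 5.43 CPM in APOE33 (log2 fold change 0.61, SE 0.13, adjusted p = 0.0066), with knock-out replicate 2 inside the APOE33 range. Spred3, a sprouty-related inhibitor, had 14.6, 16.7, 18.9 and 19.8 CPM in the knock-out, against 8.45, 11.3 and 15.4 CPM in APOE33 (log2 fold change 0.60, SE 0.15, adjusted p = 0.0132), and overlapped between groups as well. Il17rd, an inhibitor of FGF signalling also called Sef, had a log2 fold change of 0.59 (SE 0.15, adjusted p = 0.0135) and lost its call without knock-out replicate 1 (adjusted p = 0.0828). Spry1, Spred3 and Il17rd lost their calls with only APOE33 replicates 4 to 6 (adjusted p = 0.0608, 0.0735 and 0.096), where 1 gene of the list rose. Without APOE33 replicate 5, or with only APOE33 replicates 1 to 3, 8 of the 14 genes rose, and in males alone 7 rose and 1 fell. The summed level of the list was 571, 970, 1122 and 988 CPM in the knock-out libraries, against 470 to 894 CPM in APOE33.

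**Figure D5:**
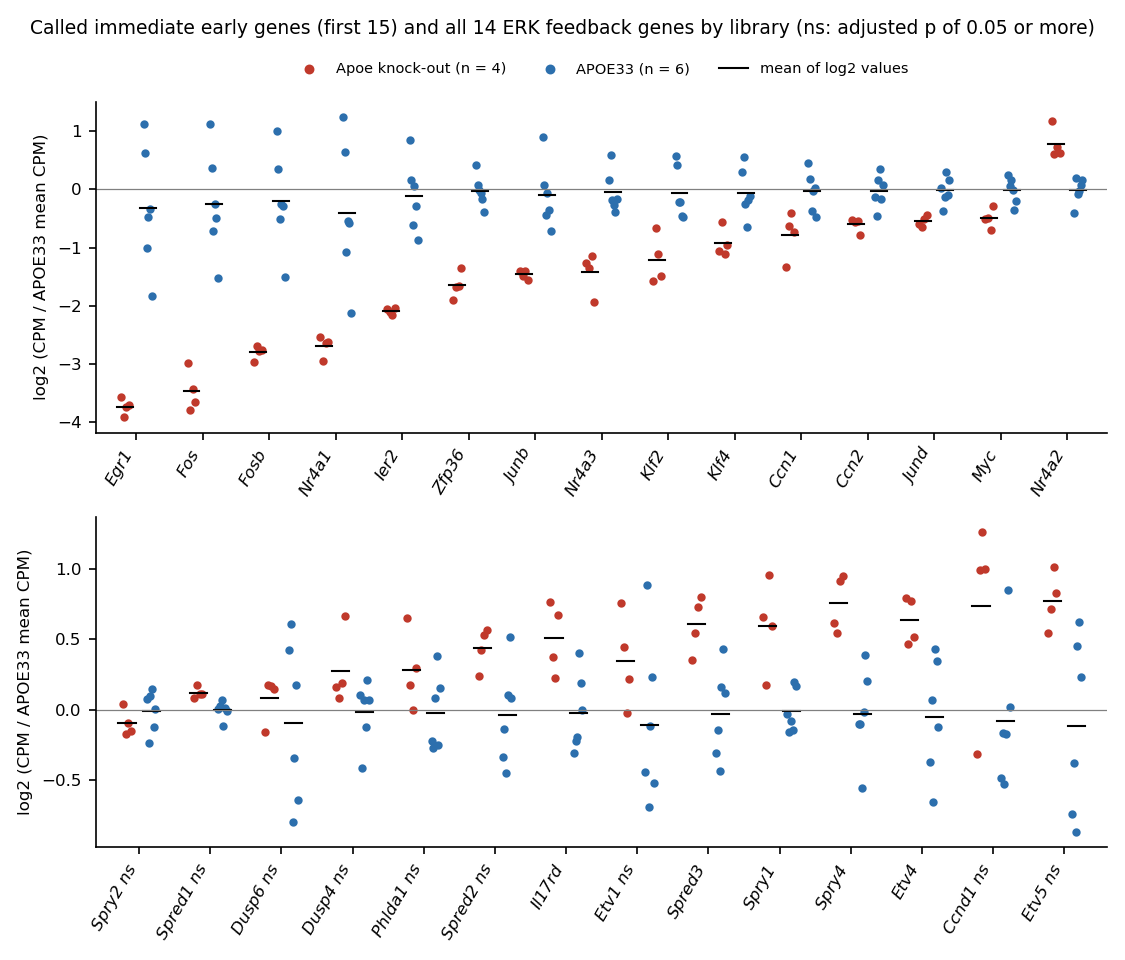
Level in each library as log2 of CPM over the APOE33 mean CPM (knock-out left, APOE33 right of each position, black bars the means of log2 values), for the 15 immediate early genes that passed (top) and all 14 ERK feedback genes (bottom; ns, did not pass). Nr4a2 is the 1 early gene that rose; 13 of the 14 feedback genes have a positive fold change.

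Metallothioneins, small metal-binding proteins that rise with zinc, copper and oxidative stress, were lower. Mt3, the brain metallothionein, stood at 1963, 2035, 1931 and 1861 CPM in the knock-out libraries, against 2946, 3315 and 3833 CPM as the lowest, median and highest of APOE33 (log2 fold change -0.81, SE 0.087, adjusted p = 5.6e-05). Mt2 had 19, 22.8, 22.9 and 19 CPM in the knock-out, against 37.2, 47.6 and 56.5 CPM in APOE33 (log2 fold change -1.200, SE 0.14, adjusted p = 0.000224), and Mt1 had 441, 455, 458 and 362 CPM in the knock-out, against 656, 874 and 1093 CPM in APOE33 (log2 fold change -1.09, SE 0.19, adjusted p = 0.00237). For all 3 genes, which lie side by side on chromosome 8, every knock-out library lay below every APOE33 library. In the list of 18 NRF2 and metallothionein genes 8 fell (44.4%) and 0 rose. Cat, the catalase that clears hydrogen peroxide, had 110.3, 113, 108 and 107 CPM in the knock-out, against 126, 131 and 141 CPM in APOE33 (log2 fold change -0.27, SE 0.046, adjusted p = 0.00166). Leaving out knock-out replicate 2 or 3 left 4 lower, and 5 were lower without knock-out replicate 4 or APOE33 replicate 3, or with only APOE33 replicates 4 to 6. In males alone 7 fell and 1 rose. Atp7b, the copper exporter that was among the 8 genes with the smallest adjusted p, stood at 19.1, 23.1, 21 and 22.1 CPM in the knock-out, against 34.4, 37.6 and 42.2 CPM in APOE33 (log2 fold change -0.87, SE 0.081, adjusted p = 1.25e-05).

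Metal response elements are known in the metallothionein promoters, and those stretches are shown because Mt1 and Mt2 moved together. The letters TGCGCNC or TGCACNC, a motif chosen after the values were seen, were held by 25.7% of all windows and by 6 of the 15 matched members of the list, among them Mt1, Mt2 and Mt3. Both stretches run 5′ to 3′ on the plus strand (GRCm38.p6), that of Mt2 at chr8:94172450-94172614 and that of Mt1 at chr8:94179026-94179088, and capitals mark the matches on either strand.
Mt2: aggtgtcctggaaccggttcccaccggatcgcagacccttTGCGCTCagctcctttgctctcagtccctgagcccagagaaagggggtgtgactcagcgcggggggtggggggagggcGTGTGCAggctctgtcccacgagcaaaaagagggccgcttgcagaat
Mt1: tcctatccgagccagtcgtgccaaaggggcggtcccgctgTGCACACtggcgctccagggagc

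Of 19 genes of the integrated stress and unfolded protein responses 8 fell (42.1%), 1 rose and 10 did not pass. Their median was -0.13, 14 fold changes were negative and 5 positive, and leaving out any 1 library left 7 to 9 lower. Without APOE33 replicate 6, 2 rose, and with only APOE33 replicates 1 to 3, 3 rose. Atf4, the factor that drives the amino acid arm, stood at 50.9, 46.8, 47.1 and 44.3 CPM in the knock-out, against 52.7, 58 and 62.9 CPM in APOE33 (log2 fold change -0.25, SE 0.058, adjusted p = 0.00827). The serine synthesis enzymes Phgdh and Psat1 had 51, 62, 62.3 and 53.4 and 166, 175, 150.4 and 136 CPM in the knock-out, against 73.2, 97.7 and 112 and 181, 232 and 273 CPM in APOE33. Their log2 fold changes were -0.78 (SE 0.11, adjusted p = 0.00042) and -0.56 (SE 0.12, adjusted p = 0.005), and neither overlapped between groups. Chac1, a glutathione-degrading enzyme, had 5.83, 6.23, 5.27 and 4.39 CPM in the knock-out, against 6.07, 9.19 and 10.4 CPM in APOE33, with some overlap (log2 fold change -0.66, SE 0.15, adjusted p = 0.00772). Of the endoplasmic reticulum chaperones, Calr, calreticulin, had 344, 386, 370.5 and 355 CPM in the knock-out, against 425, 448 and 493 CPM in APOE33 (log2 fold change -0.32, SE 0.065, adjusted p = 0.00426).

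The 1 gene of the list that rose was Asns, the asparagine synthetase and itself an ATF4 target. It had 17.5, 16.5, 18 and 19.1 CPM in the knock-out, against 9.52, 12.7 and 14.5 CPM in APOE33, with no overlap and a fold change of 0.51 (SE 0.10, adjusted p = 0.00402). The lowest, median and highest Asns levels in 6 APOE44 libraries, astrocytes of batch 1 from mice named for human APOE4, were 17.5, 18.5 and 19.9 CPM. Against them the knock-out had a log2 fold change of -0.058 (SE 0.10, adjusted p = 0.714). The core of the amino acid response element, TGATGNAA on either strand, was chosen after the values were seen. It was held by 3.97% of all windows and by 4 of the 19 members: Asns, Chac1, Herpud1 and Trib3. The windows of Asns, which rose, and Chac1, which fell, are set side by side (GRCm38.p6; Asns on the minus strand at chr6:7693210-7693272, Chac1 on the plus strand at chr2:119351009-119351096), with the match in capitals.
Asns: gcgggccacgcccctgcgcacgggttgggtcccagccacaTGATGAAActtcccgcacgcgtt
Chac1: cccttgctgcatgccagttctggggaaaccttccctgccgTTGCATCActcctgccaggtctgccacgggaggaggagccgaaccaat

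Of 20 circadian clock genes 2 rose (10.0%, near the 8.37% of all genes), 7 fell (35.0%, against 8.83%) and 11 did not pass. The activators Arntl and Clock, partners in 1 complex, were higher. Arntl had 28.2, 25.6, 26.4 and 27.9 CPM in the knock-out, against 20.5, 20.9 and 23.4 CPM in APOE33 (log2 fold change 0.35, SE 0.053, adjusted p = 0.000675). Clock had 146, 157, 157 and 145 CPM in the knock-out, against 101, 122 and 127 CPM in APOE33 (log2 fold change 0.33, SE 0.057, adjusted p = 0.00154). Among those that fell were Cry1, Per1 and Per3, of the repressor families of the loop, with all knock-out libraries under the APOE33 range. Cry1 had 26.9, 24, 23.6 and 22.5 CPM in the knock-out, against 29.6, 31.7 and 34.4 CPM in APOE33 (log2 fold change -0.37, SE 0.062, adjusted p = 0.00119). Per3 had 47.3, 52.6, 50 and 49.6 CPM in the knock-out, against 58.6, 67.2 and 77 CPM in APOE33 (log2 fold change -0.42, SE 0.074, adjusted p = 0.00184), and Per1 had a log2 fold change of -0.39 (SE 0.079, adjusted p = 0.00437). Without knock-out replicate 1, 4 genes of the list fell, and in males alone 2 fell. Collection times are not given in the labels.

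Of 29 astrocyte markers 2 rose, 7 fell (24.1%) and 20 did not pass. Their median was -0.26, 23 fold changes were negative and 6 positive, and DESeq2 called 14 lower and 2 higher. By edgeR 12 fell without APOE33 replicate 5 and 5 without APOE33 replicate 3. The number that rose was 1 without APOE33 replicate 3, and with only APOE33 replicates 4 to 6, 1 rose and 4 fell. Gja1, connexin 43, stood at 169.9, 160.5, 136 and 121 CPM in the knock-out libraries, against 372, 349, 433, 224, 226 and 273 CPM in APOE33 replicates 1 to 6. APOE33 replicates 4 to 6 lay between replicates 1 to 3 and the knock-out, and the groups did not overlap (log2 fold change -1.09, SE 0.20, adjusted p = 0.00328). Slc39a12, a zinc importer, had 201, 301, 286 and 247 CPM in the knock-out, against 369, 429 and 504 CPM in APOE33 (log2 fold change -0.77, SE 0.13, adjusted p = 0.00143), and Hepacam, an adhesion molecule that binds connexin 43, had a log2 fold change of -0.39 (SE 0.076, adjusted p = 0.00317). In the other direction, the bicarbonate transporter Slc4a4 had 799, 616, 629.7 and 618 CPM in the knock-out, against 369.5, 448 and 513 CPM in APOE33 (log2 fold change 0.58, SE 0.10, adjusted p = 0.00135). Aldh1l1, a folate enzyme used as a pan-astrocyte marker, had 437, 517, 573 and 527 CPM in the knock-out, against 303, 366 and 436 CPM in APOE33 (log2 fold change 0.45, SE 0.12, adjusted p = 0.0161). Gfap and the water channel gene Aqp4, which were chosen after their values were seen, did not pass (log2 fold change -0.44, SE 0.16, adjusted p = 0.0773; log2 fold change 0.079, SE 0.12, adjusted p = 0.679).

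The list of 38 reactive genes had 6 that rose and 3 that fell, and a median fold change of 0.04. These are 15.8% higher and 7.89% lower, against 8.37% and 8.83% of all genes, and DESeq2 called 7 lower. The ferroxidase ceruloplasmin, Cp, stood at 730, 612, 603 and 768 CPM in the knock-out, against 229, 251, 237, 309, 462 and 342 CPM in APOE33 replicates 1 to 6 (log2 fold change 1.20, SE 0.21, adjusted p = 0.00237). Here too APOE33 replicates 4 to 6 were the nearest to the knock-out. Aspg, an asparaginase, rose at a low level, with 2.25, 1.5, 1.87 and 1.14 CPM in the knock-out, against 0.418, 0.454 and 0.689 CPM in APOE33 (log2 fold change 1.74, SE 0.23, adjusted p = 0.000245). Lcn2, an iron-siderophore binding protein, had 609.9, 876, 1118 and 579 CPM in the knock-out, against 151, 107, 121, 370, 259.7 and 405 CPM in APOE33 replicates 1 to 6 (log2 fold change 1.55, SE 0.43, adjusted p = 0.0262). The Lcn2 call was lost without knock-out replicate 1 or 3 or APOE33 replicate 3 (adjusted p = 0.0953, 0.0612 and 0.0564). The count that rose was 3 without knock-out replicate 1 or 3 or APOE33 replicate 3. The count that fell was 1 without knock-out replicate 1 or 4, 6 without knock-out replicate 2 5 without APOE33 replicate 6 and 1 in males alone. With only APOE33 replicates 4 to 6, 2 rose and 2 fell, and Lcn2 had an adjusted p of 0.117. The complement regulator Cd59a, which blocks the membrane attack complex, had 21.6, 20.5, 17.2 and 21.8 CPM in the knock-out, against 39.8, 52.9 and 62.9 CPM in APOE33 (log2 fold change -1.35, SE 0.16, adjusted p = 0.000184).

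Extracellular matrix genes passed in both directions, some lists at shares near or under those of all genes. Sparc, a collagen-binding glycoprotein that astrocytes secrete, stood at 2217, 3912, 3470 and 3116 CPM in the knock-out, against 4293, 5162 and 5607 CPM as the lowest, median and highest of APOE33 (log2 fold change -0.74, SE 0.14, adjusted p = 0.00323). Lama2, a laminin chain of the glial basement membrane, had 25.9, 35.4, 31.1 and 25.8 CPM in the knock-out, against 37, 46.2 and 53.4 CPM in APOE33 (log2 fold change -0.67, SE 0.11, adjusted p = 0.000991). Neither gene overlapped between groups. Efemp1, a fibulin, went the other way, with 260.3, 319.5, 311 and 281 CPM in the knock-out, against 110.1, 133 and 204 CPM in APOE33 (log2 fold change 1.06, SE 0.15, adjusted p = 0.000715). Col9a1 and Col9a3, chains of the same fibril-associated collagen, rose together: Col9a1 had 15.8, 7.87, 7.32 and 9.06 CPM and Col9a3 8.5, 8.49, 8.4 and 7.19 CPM in the knock-out, against 1.5, 3.04 and 5.5 CPM and 3.91, 4.32 and 5.91 CPM in APOE33 (log2 fold change 1.72, SE 0.31, adjusted p = 0.00244; log2 fold change 0.81, SE 0.14, adjusted p = 0.00143). Among the proteoglycans, Cspg5, neuroglycan C, had a log2 fold change of 1.21 (SE 0.21, adjusted p = 0.00208), Gpc6, a glypican that astrocytes release to promote synapses, had a log2 fold change of 0.39 (SE 0.082, adjusted p = 0.00532), and Gpc1 had a log2 fold change of -0.45 (SE 0.10, adjusted p = 0.00589). Against 8.37% higher and 8.83% lower over all genes, 5 of 32 collagens rose (15.6%) and 1 fell (3.12%), and 4 of 37 matrix glycoproteins rose (10.8%) and 7 fell (18.9%). Of 30 proteoglycans 5 rose (16.7%) and 4 fell (13.3%), and of 37 matrix proteases and inhibitors 6 rose (16.2%) and 2 fell (5.41%). In males alone 0 collagens and 3 glycoproteins fell, 3 proteoglycans rose and 2 fell, and 3 proteases or inhibitors rose. DESeq2 called 4 collagens and 5 proteases or inhibitors lower. Without knock-out replicate 1, 2 glycoproteins and 3 proteases or inhibitors rose, and 0 collagens, 4 glycoproteins, 2 proteoglycans and 1 protease or inhibitor fell. Without APOE33 replicate 3, 2 glycoproteins rose, and 4 glycoproteins and 0 collagens fell. Without knock-out replicate 3, 4 glycoproteins fell, and without knock-out replicate 4, 2 proteoglycans fell. Collagens that rose numbered 8 without APOE33 replicate 5, and those that fell numbered 2 without knock-out replicate 2 or APOE33 replicate 4 and 3 without APOE33 replicate 6. Proteases and inhibitors that fell numbered 1 without knock-out replicate 2, 3 or 4 and 4 without APOE33 replicate 4.

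Markers of the oligodendrocyte lineage were lower, at low levels. Of 16 tested, 7 fell (43.8%) and 0 rose, with a median of -0.83. Bcas1, of newly formed oligodendrocytes, had 0, 0.0748, 0 and 0.0181 CPM in the knock-out, against 0.37, 0.993 and 1.98 CPM in APOE33, with no overlap (log2 fold change -5.31, SE 1.22, adjusted p = 0.0105). Mobp, a myelin protein gene that was chosen after its values were seen, had 0 counts in all 4 knock-out libraries and 281 counts in the 6 APOE33 libraries. Against a floor of 3 counts over the group it was 63.4-fold lower. Both reads of a pair were often counted, so 3 counts can stand for fewer fragments and a safe bound is smaller. Its edgeR call (adjusted p = 0.0341) was lost without any 1 of 6 libraries, namely knock-out replicates 1 to 4 and APOE33 replicates 1 and 3 (adjusted p from 0.051 to 0.0905). Cldn11, a tight junction protein of myelin, had 0.0527, 0.112, 0.0173 and 0.0362 CPM in the knock-out, against 0.232, 0.583 and 1.22 CPM in APOE33 (log2 fold change -3.29, SE 0.78, adjusted p = 0.0109), and lost its call without knock-out replicate 1 (adjusted p = 0.055). Pdgfra, the receptor of oligodendrocyte precursors, had 0.764, 1.61, 1.12 and 0.986 CPM in the knock-out, against 3.14, 5.92 and 23.1 CPM in APOE33. Its fold change of -2.68 (SE 0.72, adjusted p = 0.0227) lost its call without knock-out replicate 1, 3 or 4 or APOE33 replicate 3 (adjusted p = 0.101, 0.0512, 0.0556 and 0.0538). Olig2, of the same lineage but also made by other glial progenitors, did not pass, with 14.7, 11, 12.9 and 11.6 CPM in the knock-out, against 9.33, 12.2 and 15.8 CPM in APOE33 (log2 fold change 0.17, SE 0.14, adjusted p = 0.406; chosen after its values were seen). Summed over 16 markers the level was 213 to 225 CPM in knock-out and 247 to 282 CPM in APOE33 libraries. The number that fell was 2 without knock-out replicate 1, 4 without knock-out replicate 3 or 4, 3 without APOE33 replicate 3 4 in males alone, where 1 rose, and 2 with only APOE33 replicates 4 to 6, where the calls of Mobp, Pdgfra and Bcas1 were lost (adjusted p = 0.124, 0.0906 and 0.0613).

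Of 11 ependymal and choroid plexus genes tested, 4 fell (36.4%, against 8.83% of all genes) and 0 rose, and leaving out any 1 library left 3 or 4. With only APOE33 replicates 4 to 6, 3 fell. Foxj1, the master factor of motile cilia, stood at 108, 173, 166 and 219 CPM in the knock-out, against 243, 276 and 325 CPM in APOE33 (log2 fold change -0.79, SE 0.16, adjusted p = 0.00572). Dynlrb2, a dynein light chain of cilia, had 2.73, 3.46, 3.01 and 3.97 CPM in the knock-out, against 6.8, 8.69 and 15.6 CPM in APOE33 (log2 fold change -1.47, SE 0.23, adjusted p = 0.00105), and Folr1, a folate receptor, had a log2 fold change of -1.23 (SE 0.17, adjusted p = 0.00035). All 3 were separate between groups. The choroid plexus product Ttr, chosen after its values were seen, was near 0 in 9 of the 10 libraries, at 0.141, 0.112, 0.0692 and 0.0904 CPM in the knock-out and 2.98, 0.0586, 0.109, 0.105, 0.226 and 0.125 CPM in APOE33 replicates 1 to 6. Summed over the 12 markers of the list the level was 126 to 268 CPM in knock-out and 298 to 436 CPM in APOE33.

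Several genes of the disease-associated state of microglia rose. Among 28 disease-associated genes, 10 rose (35.7%), 2 fell and the median was 0.41. Spp1, osteopontin, had 46.2, 66.2, 36.9 and 42.5 CPM in the knock-out, against 12.9, 18 and 26.1 CPM in APOE33 (log2 fold change 1.34, SE 0.28, adjusted p = 0.00637), and Lyz2, lysozyme, had 314, 364, 185 and 238 CPM in the knock-out, against 90.9, 124 and 194 CPM in APOE33 (log2 fold change 1.20, SE 0.26, adjusted p = 0.00834). Spp1 was separate between groups, and Lyz2 overlapped in 1 knock-out library. Ctsb, a cathepsin that astrocytes also make, had 4904, 4298, 4426 and 4037 CPM in the knock-out, against 2098, 3064 and 3623 CPM in APOE33 (log2 fold change 0.54, SE 0.15, adjusted p = 0.0214). The Ctsb call was lost without knock-out replicate 1 or APOE33 replicate 3 (adjusted p = 0.151 and 0.0672). Beside these, 20 of 21 microglia and macrophage markers tested had a positive fold change, with a median of 0.72. Of them 2 rose (9.52%, near the 8.37% of all genes) and 1 fell (4.76%, against 8.83%). Those that rose were Adgre1 (log2 fold change 1.29, SE 0.34, adjusted p = 0.0199) and Aif1 (log2 fold change 1.08, SE 0.34, adjusted p = 0.0399). The transcription factor Sall1 fell (log2 fold change -0.41, SE 0.059, adjusted p = 0.000511). C1qa, a microglial complement gene chosen after its values were seen, had 117, 126, 56.3 and 88.5 CPM in the knock-out, against 45, 77.7 and 173 CPM in APOE33, and did not pass (log2 fold change 0.32, SE 0.45, adjusted p = 0.668).

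None of the 22 microglia markers was at 0 in all libraries of a group, and their sum varied widely within each group. In knock-out it was 632, 674, 355 and 500 CPM in replicates 1 to 4, against 512, 748, 323, 286, 390 and 451 CPM in APOE33 replicates 1 to 6. The part of these markers in the higher disease-associated genes was not tested. The count of disease-associated genes that rose was 3 without APOE33 replicate 3, 4 without knock-out replicate 1, 5 without knock-out replicate 4, and 6 without knock-out replicate 2 or APOE33 replicate 1. The number that fell was 0 without knock-out replicate 1, 3 or 4 or APOE33 replicate 3, and 1 without APOE33 replicate 1. With only APOE33 replicates 4 to 6, 6 rose and 0 fell, and in males alone 3 rose and 0 fell. Of 7 border macrophage markers 1 rose (14.3%, against 8.37% of all genes), Ms4a7 (log2 fold change 1.31, SE 0.30, adjusted p = 0.00952). Its call was lost without knock-out replicate 1 (adjusted p = 0.0585), and 2 of these markers rose without knock-out replicate 4 or APOE33 replicate 6. Adgre1 lost its call without knock-out replicate 1 or APOE33 replicate 3 (adjusted p = 0.0967 and 0.0564). Aif1 lost it without any 1 of 8 libraries, namely knock-out replicates 1, 2 and 4 and APOE33 replicates 1, 3, 4, 5 and 6 (adjusted p from 0.0508 to 0.138). Without APOE33 replicate 2, the library with the highest sum, 6 microglia markers rose. DESeq2 called 5 microglia markers and 2 border macrophage markers higher, and in males alone 1 and 0 rose.

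The lists that follow are set against 8.37% higher and 8.83% lower over all genes. Of 37 type I interferon genes 0 rose and 1 fell (2.70%), 5 rose and 0 fell in males alone, and 0 fell without any 1 of knock-out replicates 1 to 4 and APOE33 replicates 1 to 3, while 2 rose without APOE33 replicate 2. Of 17 antigen presentation genes 1 rose (5.88%), with a median of 0.23, and 2 rose without APOE33 replicate 5 or by DESeq2. In males alone 9 of the 17 rose, with a median of 0.57. Of 9 neuron markers and 7 endothelium markers 0 passed (edgeR; 3 and 0 at an unadjusted p under 0.05, and 1 and 0 by DESeq2). With only APOE33 replicates 1 to 3, 4 neuron markers and 1 endothelium marker rose, 1 endothelium marker rose in males alone, and 1 neuron marker rose without knock-out replicate 3 or APOE33 replicate 2, 4 or 5. Of 12 mural and fibroblast markers 3 rose (25.0%) and 1 fell (8.33%), and 0 fell in males alone or without knock-out replicate 1 or 4 or APOE33 replicate 1, 2 or 3. Their summed level was 234 to 459 CPM in knock-out and 422 to 539 CPM in APOE33. Of 32 cell cycle genes 5 rose (15.6%) and 1 fell (3.12%). In males alone 16 rose and 0 fell, and the number that rose was 0 without knock-out replicate 2 or 3 or APOE33 replicate 1, 3 or 6, 1 without knock-out replicate 4, 2 without APOE33 replicate 4 and 10 without knock-out replicate 1. Glycolysis and lactate genes had 1 higher (4.76%) and 4 lower (19.05%) of 21, with 1 lower without knock-out replicate 1, 2 without APOE33 replicate 3 and 7 without APOE33 replicate 2. Gpi1, the glucose phosphate isomerase, was the 1 that rose, with 543, 603, 693 and 505 CPM in the knock-out, against 334, 391 and 477 CPM in APOE33 (log2 fold change 0.51, SE 0.10, adjusted p = 0.00266).

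Of 22 chemokines and cytokines 4 rose (18.2%) and 1 fell (4.55%), 2 rose without knock-out replicate 1, and 0 fell in males alone. Il34, a ligand of the receptor that keeps microglia alive, stood at 21.7, 14.9, 15.3 and 19.1 CPM in the knock-out, against 7.04, 10.1 and 15.6 CPM as the lowest, median and highest of APOE33 (log2 fold change 0.83, SE 0.17, adjusted p = 0.00572). Cxcl16, a chemokine made as a membrane protein, had 5.33, 6.12, 5.69 and 5.59 CPM in the knock-out, against 3.6, 3.73 and 4.21 CPM in APOE33 (log2 fold change 0.57, SE 0.12, adjusted p = 0.00518). Tgfb2, a growth factor of the TGF-beta family, was the 1 that fell (log2 fold change -0.48, SE 0.11, adjusted p = 0.00717). When the fit held only the 10 knock-out and APOE33 libraries, fewer genes passed in all (887 higher and 873 lower), and so in many lists. In that fit 5 disease-associated microglia genes rose and 0 fell, 1 astrocyte marker rose and 4 fell, 0 reactive genes fell, 4 NRF2 and metallothionein genes fell, 0 cell cycle genes rose and 1 glycolysis gene fell.

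Outside the lists, the genes that rose most included an enzyme of retinoic acid synthesis, a lectin receptor, a guidance cue and a glutamate receptor subunit. They are from the 12 largest rises among genes with a mean of at least 1 on the log2 CPM scale. Aldh1a1, a retinaldehyde dehydrogenase that makes retinoic acid, was the most abundant of them, with 1708, 999, 1510 and 1678 CPM in the knock-out libraries, against 324, 284, 322, 572, 519 and 561 CPM in APOE33 replicates 1 to 6 (log2 fold change 1.81, SE 0.22, adjusted p = 0.000301). Cd93, a C-type lectin receptor, had 4.92, 7.38, 3.21 and 3.51 CPM in the knock-out, against 0.774, 1.22 and 1.5 CPM in APOE33 (log2 fold change 2.18, SE 0.28, adjusted p = 0.000245). Sema7a, a membrane-anchored semaphorin, had 20.6, 19.5, 26.1 and 26.7 CPM in the knock-out, against 3.85, 3.49, 3.41, 8.92, 11.2 and 7.01 CPM in APOE33 replicates 1 to 6 (log2 fold change 1.96, SE 0.33, adjusted p = 0.00188). For Aldh1a1 and Sema7a the APOE33 libraries fell into a lower trio, replicates 1 to 3, and a higher trio, replicates 4 to 6, both below the knock-out. F5, coagulation factor V, had a log2 fold change of 1.96 (SE 0.24, adjusted p = 0.000158), and Snhg11, a non-coding RNA, had a log2 fold change of 1.79 (SE 0.30, adjusted p = 0.00196). Gria4, an AMPA receptor subunit, had 30.5, 31, 26.8 and 34.4 CPM in the knock-out, against 4.58, 9.1, 3.93, 12.8, 21.9 and 10.5 CPM in APOE33 replicates 1 to 6 (log2 fold change 1.73, SE 0.39, adjusted p = 0.00985), and only replicate 5 came near the knock-out.

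Among the 12 largest falls, Ednrb, the endothelin B receptor of reactive astrocytes, stood at 18.9, 34.2, 22.7 and 17.1 CPM in the knock-out, against 139, 127, 182, 57.5, 54.3 and 78.3 CPM in APOE33 replicates 1 to 6 (log2 fold change -2.28, SE 0.39, adjusted p = 0.00241). Calml4, a calmodulin-like protein, had 0.641, 2.55, 2.1 and 1.54 CPM in the knock-out, against 5.12, 7.15 and 11.6 CPM in APOE33 (log2 fold change -2.40, SE 0.38, adjusted p = 0.00143). Ucma, a matrix protein of cartilage, had 2.81, 5.08, 3.07 and 1.34 CPM in the knock-out, against 5.6, 15.9 and 24.2 CPM in APOE33 (log2 fold change -2.27, SE 0.49, adjusted p = 0.00777). All 3 were separate between groups, and in each APOE33 replicates 4 to 6 were lower than replicates 1 to 3. Slc6a15, a neutral amino acid transporter, had a log2 fold change of -2.16 (SE 0.49, adjusted p = 0.0106). With only APOE33 replicates 4 to 6, Ucma and Slc6a15 lost their calls (adjusted p = 0.0651 and 0.0903).

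The smallest adjusted p belonged to Wdfy1 (ENSMUSG00000073643.11, chromosome 1, 79702262 to 79776143), an endosomal protein that takes part in Toll-like receptor signalling. It had 17.9, 18.2, 17.6 and 18.2 CPM in the knock-out libraries, against 72.3, 73.5 and 77.7 CPM in APOE33 (log2 fold change -2.03, SE 0.048, adjusted p = 8.53e-14). In APOE44 astrocytes its lowest, median and highest levels were 14.1, 15 and 16.4 CPM, and the log2 fold change of the knock-out over APOE44 was 0.26 (SE 0.044, adjusted p = 0.000659). Eps8l1, related to an actin-bundling protein, was higher in the knock-out than in APOE33, with 9.83, 5.62, 4.75 and 8.78 CPM in the knock-out, against 9.74, 11.6 and 14 CPM in APOE44 and 0.596, 0.725 and 0.748 CPM in APOE33. Its log2 fold change over APOE33 was 3.42 (SE 0.18, adjusted p = 1.26e-08), and over APOE44 -0.66 (SE 0.17, adjusted p = 0.00945). Ndn, necdin, an imprinted growth suppressor, stood apart from both: it had 50.5, 43.5, 45.7 and 38.4 CPM in the knock-out, against 80.8, 82.9 and 88.7 CPM in APOE44 and 84.6, 89 and 93.8 CPM in APOE33 (log2 fold change -1.0, SE 0.065, adjusted p = 1.9e-07). Sema3e, a secreted semaphorin, had 68.7, 60.2, 64.5 and 63.9 CPM in the knock-out, against 24.9, 34.4 and 38 CPM in APOE33 (log2 fold change 1.03, SE 0.084, adjusted p = 3.84e-06). Zfp503, a zinc finger repressor, had 11.6, 11.6, 10.8 and 11.7 CPM in the knock-out, against 22.2, 27.8 and 33.4 CPM in APOE33 (log2 fold change -1.30, SE 0.11, adjusted p = 5.24e-06), and Klf13, a Krüppel-like factor, had a log2 fold change of -0.66 (SE 0.065, adjusted p = 2.4e-05). Both comparisons of the knock-out share their 4 knock-out libraries and are not independent.

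Myadm, a membrane protein of lipid rafts, had the smallest adjusted p for a difference between the cell types. In astrocytes it had 26.5, 34.9, 32.7 and 35.6 CPM in the knock-out, against 54.7, 57.1 and 60.1 CPM in APOE33 (log2 fold change -0.86, SE 0.074, adjusted p = 5.34e-06), and overlapped in no library. In the joint fit the effect was -0.84 in astrocytes and 1.07 in microglia, a difference of 1.91 (SE 0.11, adjusted p = 9.47e-12). Map3k5, the stress kinase ASK1, went the opposite way, with effects of 0.80 in astrocytes and -0.48 in microglia (difference -1.27, SE 0.11, adjusted p = 1.32e-08). Dmpk, the myotonic dystrophy kinase, had effects of 0.72 in astrocytes and -2.54 in microglia (difference -3.26, SE 0.26, adjusted p = 1.32e-08). It lies on chromosome 7, 609 kb from Apoe.

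The edited locus itself lies on chromosome 7, and genes near it were counted apart. Within 1 Mb of Apoe 58 genes were tested, of which 7 rose and 7 fell (24.1%), against 17.1% of genes elsewhere in the genome. A change of at least 1 on the log2 scale was called for 6 of them (10.3%), against 3.30% elsewhere. The 6 include Apoc4, Apoc1 and a predicted gene that lies within Bcl3, each with a mean under 1 CPM in both groups. Between 1 and 5 Mb 67 genes were tested, 11.9% passed and 0% had a called change of at least 1. Between 5 and 20 Mb 415 were tested, 22.7% passed and 5.78% had such a change. Bcl3, an atypical inhibitor of NF-kappa-B, lies 118 kb from Apoe and had 9.03, 6.62, 6.93 and 6.73 CPM in the knock-out libraries, against 1.12, 1.62 and 3.02 CPM in APOE33 (log2 fold change 1.89, SE 0.24, adjusted p = 0.000236). Bcam, a laminin receptor 65.9 kb from Apoe that was chosen after its values were seen, had 44.7, 76.1, 91.4 and 60.9 CPM in the knock-out, against 20.7, 27.5 and 32.3 CPM in APOE33 (log2 fold change 1.24, SE 0.19, adjusted p = 0.00105). Both genes were separate between groups. Fosb, named above, lies 391 kb from Apoe. Zfp36, also named above, lies on the same chromosome, between 5 and 20 Mb from Apoe. Distances from Apoe are given for only some of the genes named, and others may also lie within 20 Mb of it. Expression that follows from the edit of the locus and expression that follows from the loss of the protein cannot be told apart here.

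Of 13 protein genes of the mitochondrial genome 2 rose (15.4%, against 8.37% of all genes), and 1 rose without knock-out replicate 1 or 4 or APOE33 replicate 6. mt-Nd5, a subunit of complex I, had 4524, 4283, 4191 and 4383 CPM in the knock-out, against 3379, 3644 and 3720 CPM in APOE33 (log2 fold change 0.28, SE 0.079, adjusted p = 0.0255), and lost its call without knock-out replicate 1 or 4 or APOE33 replicate 6 (adjusted p = 0.109, 0.0542 and 0.064). mt-Nd3, another subunit, had 4.98, 4.55, 3.87 and 4.14 CPM in the knock-out, against 0.401, 0.713 and 1.5 CPM in APOE33 (log2 fold change 2.24, SE 0.40, adjusted p = 0.00244). Its groups were separate, but it was counted at a small fraction of the level of mt-Nd5. The mouse nuclear genome holds near-identical copies of part of the mitochondrial genome, so the assignment of reads to mt-Nd3 is uncertain. The library kit does not mark strand, so reads of overlapping genes on opposite strands cannot be told apart.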

How the data were processed

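Reads were aligned with STAR 2.5.3a and counted with featureCounts, per the submitters' processing notes, which also name edgeR 3.26.8. The only build these notes name is hg38, and the mouse build is not given in the sources used here. The deposited values are raw read counts per gene in 44 libraries, one paired-end library of total RNA each, from a kit that does not mark strand (NEBNext Ultra), per the labels' protocols. Over the 10 libraries compared 62.4% to 75.5% of counts from 1 to 9 were even, so both reads of a pair were often counted. The share was 62.4% to 65.4% in the knock-out. In APOE33 it was 75.5% and 74.9% in replicates 4 and 6 and 65.7% to 66.6% in the others. In APOE44 astrocytes it ran from 64.0% to 75.1%. Of 54146 identifiers 54079 matched the GENCODE M21 annotation (GRCm38), which gave names and positions. No 2 replicates agreed within sampling noise (21 pairs, chi-square per gene of at least 18.2).

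Counts were fitted with edgeR 4.0.16 in R 4.3.3 (filterByExpr, TMM scaling, robust quasi-likelihood test, Benjamini-Hochberg adjustment). The fit held all 16 astrocyte libraries of batch 1 (4 knock-out, 6 APOE33, 6 APOE44) with sex as covariate. Wild-type libraries belong to batch 2 and were not used. The same test on all 32 libraries of batch 1 gave the difference between cell types. Levels (CPM) are counts over the TMM-scaled library size. SE was derived from the log2 fold change and its F statistic. The procedure was tested on simulated data. DESeq2 1.42.0, other scalings, filters, covariates, a replicate block, males alone and leave-one-out sets were tried as alternatives, and fits with only APOE33 replicates 1 to 3 or 4 to 6 were chosen after seeing the data.

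Genes are named by a rule: Apoe, the 12 largest rises and 12 largest falls, the 8 smallest adjusted p-values, up to 6 passing members of each of 32 lists, and the 6 smallest adjusted p-values for the difference between cell types. The text gives part of them, a few results are not reported here, and other genes are marked as chosen after their values were seen. The members and lists were chosen with earlier results of these data known. Promoter windows are from RefSeq (GRCm38.p6), and the motifs for metal and amino acid response were chosen after seeing the data. Libraries held 97175787 to 117667286 counts each. The lowest levels, such as Apoc4 in APOE33 and Bcas1 and Cldn11 in the knock-out, still rest on few counts and are imprecise in counting terms. For genes at higher levels the number of libraries limits precision. Floors cover counting error only.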

Additional observations from a re-analysis of the deposited data

Results flagged for a closer look

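For many genes named above the knock-out effect differed between the cell types, by edgeR's quasi-likelihood test of the difference (Benjamini-Hochberg adjusted p under 0.05 over 21647 genes, 12.7% of which passed). Each value here is the log2 effect of the knock-out in microglia minus that in astrocytes, from 4 knock-out and 6 APOE33 libraries of each cell type. Among cholesterol synthesis enzymes the difference was 1.88 for Hmgcs1, 2.06 for Mvd, 2.31 for Idi1 and 2.52 for Fdps. For the later enzymes it was 2.17 for Fdft1, 2.36 for Sqle, 2.04 for Cyp51, 1.92 for Msmo1 and 1.75 for Nsdhl. Other lipid genes gave 0.90 for Srebf2, 1.89 for Stard4, 1.33 for Lrp8 and 2.49 for Fads2, and in the other direction -1.44 for Cyp27a1. Of the early, stress and metal genes, positive differences were 2.01 for Fos, 1.21 for Zfp36, 1.73 for Ccn2, 1.35 for Mt1, 1.71 for Mt2, 0.65 for Cat, 0.48 for Calr, 0.52 for Per3 and 1.31 for Atp7b. Negative differences in the same groups were -1.82 for Nr4a2, -1.29 for Nr4a3, -1.43 for Spry1, -1.35 for Asns, -0.46 for Atf4, -0.54 for Arntl, -0.29 for Clock and -1.27 for Map3k5. Astrocyte, matrix and ependymal genes gave 1.23 for Gfap, 2.10 for Gja1, 1.95 for Slc39a12, 1.57 for Lama2, 2.97 for Ednrb, 1.98 for Foxj1 and 1.36 for Folr1. Microglial and immune genes gave -2.01 for Sall1, -1.09 for Aif1, -1.002 for Ms4a7, -1.18 for Spp1, -0.93 for Lyz2 and -0.78 for Cxcl16. Levels in microglia are not given here, and several of these genes are markers of only 1 of the cell types. The part of other cells within each culture in these differences was not tested. Near Apoe the values were -1.80 for Bcl3, -1.86 for Bcam and -3.26 for Dmpk. The remaining genes gave 2.99 for Eps8l1, -1.34 for Aldh1a1, 2.75 for Calml4, 0.89 for Zfp503, 1.91 for Myadm and 0.60 for Klf13.

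Some libraries stood apart within their group of 4 or 6, with a gap to the nearest other library that was large against the group's whole range (Dixon's test on the log2 scale at the 95% level). Chance alone marks about 1 in 20 groups. Knock-out replicate 1 stood apart for the summed collagens at 1162 CPM, the summed glycolysis and lactate export at 15890 CPM, Bcl3 at 9.03 CPM, Slc6a15 at 0.861 CPM, Srebf2 at 202 CPM and Slc4a4 at 799 CPM. Knock-out replicate 2 stood apart for Fdps at 1.33 CPM. Knock-out replicate 3 stood apart for Zfp503 at 10.8 CPM. Knock-out replicate 4 stood apart for the summed astrocyte markers at 25510 CPM, the summed oligodendrocyte lineage markers at 213 CPM, the summed disease-associated microglia genes at 9943 CPM, Col9a3 at 7.19 CPM, Gpc1 at 35.4 CPM, Mt1 at 362 CPM and Ccn2 at 775 CPM. APOE33 replicate 1 stood apart for Ttr at 2.98 CPM. APOE33 replicate 2 stood apart for Dynlrb2 at 15.6 CPM and Cxcl16 at 4.21 CPM. APOE33 replicate 4 stood apart for Clock at 101 CPM. APOE33 replicate 5 stood apart for the summed collagens at 1681 CPM. APOE33 replicate 6 stood apart for Hmgcs1 at 136 CPM, mt-Nd5 at 3379 CPM and Idi1 at 12.9 CPM. Knock-out replicate 1 is the only female library of its group.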

How the results depend on the processing

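The number of genes that passed depended on which libraries entered the fit, while scaling, DESeq2, the filter, robust estimation and the covariates left the 1714 higher and 1808 lower genes within 1.5 times. With only the 10 knock-out and APOE33 libraries 887 rose and 873 fell, in males alone 1115 rose and 1009 fell, and with only APOE33 replicates 4 to 6, 859 rose and 1089 fell. Leaving out 1 library at a time gave 939 to 1809 higher and 897 to 1879 lower genes, lowest without knock-out replicate 1. A minimum change of 0.5 on the log2 scale kept 916 higher and 618 lower genes. The replicate numbers of the labels do not pair the groups: deviations of same-numbered libraries correlated at -0.067 to 0.146, and the fit with the replicate number as a block gave 919 higher and 973 lower genes. The difference between cell types kept its count within 1.5 times under every alternative run (1917 to 3228). Apoe, counted on the mouse gene only, kept its direction and its call in every alternative run. Of 111 other genes named, 14 lost their call under the replicate block, 21 in males alone, 16 with only APOE33 replicates 4 to 6 and 14 without knock-out replicate 1. The 111 include some genes, such as Abca1 and Aqp4, that had no call to lose. Among genes that did not pass, Abca1 ran from -0.218 to 0.0019 on the log2 scale when 1 library was left out, changing sign without knock-out replicate 1. It was 0.025 with only APOE33 replicates 4 to 6, and Aqp4 was -0.085 with only APOE33 replicates 1 to 3, both with the sign changed; the cause was not tested. With 4 knock-out libraries, 1 of them female, sex and knock-out replicate 1 cannot be told apart within that group.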
